A study of Ovis aries and Capra hircus and Bos taurus with 26 samples.

Results

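The remote enhancers described here were 1985 regions of ruminant liver that carried acetylation of lysine 27 on histone H3 (H3K27ac) and lay more than 100 kb from any trimethylation of lysine 4 on the same histone (H3K4me3). They were selected on the positions of ChIP-seq peaks alone. Within each species, the H3K27ac intervals of all libraries were merged on the autosomes, and a merged interval was kept as a candidate enhancer when at least 2 libraries overlapped it and no H3K4me3 interval did. A candidate counted as remote when the distance, edge to edge, to every H3K4me3 interval exceeded 100 kb and no other candidate lay within just over 12 kb. The rule left 628 regions in cattle, 586 in sheep and 771 in goats, out of 40898 candidates and 159091 merged H3K27ac intervals.

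An enhancer is a stretch of regulatory DNA that raises the transcription of a gene in cis, often across a long distance. Active enhancers and active promoters both carry H3K27ac, whereas strong H3K4me3 is a feature of promoters at transcription start sites, so H3K27ac without H3K4me3 is the usual signature of a distal enhancer. In liver, such elements are bound by hepatocyte transcription factors and serve genes of metabolism and of secreted plasma proteins. Looping of chromatin can bring an enhancer to a promoter far away on the same chromosome, and other genes may lie in between. Neither the target gene nor the activity of a region can be read from the histone marks alone.

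The liver came from healthy adult Holstein cattle, Texel sheep and Yunnan black goats, with 3 animals (A, B and C) per species and no treatment. There were 8 H3K27ac libraries (cattle B and C, and sheep and goats A to C) and 9 H3K4me3 libraries, so a cattle region had to be present in both of the H3K27ac libraries, whereas sheep and goat regions needed 2 of 3. Whole liver was used, and the marks of hepatocytes and of other liver cells cannot be told apart. Each H3K27ac library held between 35693 and 48735 autosomal peaks. The methods state that reads were subsampled to 1 common depth for the paired-end libraries, which could not be checked from the peak lists, since these hold no read counts. A genome or gene annotation of these builds was not used here, and neither genes nor sequences are given for the regions.

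Remote enhancers were a small part of the candidates in every species. They made up 5.18% of 12129 candidates in cattle, 4.88% of 12009 in sheep and 4.60% of 16760 in goats. Before the isolation rule, 1033 cattle, 905 sheep and 1607 goat candidates lay beyond 100 kb, and 60.8%, 64.8% and 48.0% of them stood alone. The same isolation was met by 49.8%, 53.5% and 41.7% of the candidates that lay 5 to 100 kb from H3K4me3. These 12929 isolated candidates (4117 in cattle, 4192 in sheep and 4620 in goats) are named nearer single enhancers below and serve as the comparison.

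The distances had a similar distribution in the 3 species, although the limit itself was part of the choice. The median distance to H3K4me3 was 170 kb in cattle, 160 kb in sheep and 168 kb in goats, with quartiles of 126 and 265 kb, 122 and 256.5 kb, and 125 and 260 kb. Beyond 200 kb lay 247 cattle, 213 sheep and 289 goat regions, and beyond 500 kb lay 46, 41 and 53. More than 1 Mb separated 7 cattle, 2 sheep and 11 goat regions from the mark. At the limit itself, the first cattle regions were 100.1 kb away and the closest that failed were at 99.9 and 99.8 kb. In sheep the values were 100.3 and 100.4 kb inside against 99.9 and 99.8 kb outside, and in goats 100.7 kb for both against 99.96 and 99.7 kb.

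The density of single enhancers was lower in each class farther from H3K4me3, on both sides of the limit of 100 kb. Per Mb of autosomal sequence at 5 to 10 kb from the mark, there were 4.56 single enhancers in cattle, 4.56 in sheep and 4.97 in goats. At 50 to 100 kb the density was 1.94, 1.65 and 2.20 per Mb. At 100 to 200 kb it was 1.05, 0.988 and 1.41 per Mb, and beyond 500 kb it was 0.272, 0.243 and 0.280 per Mb. Sequence beyond 100 kb from H3K4me3 made up 35.5%, 34.9% and 35.7% of the sequence between H3K4me3 intervals, or 872 Mb, 916 Mb and 870 Mb. Counting clustered candidates too, this sequence held 1.19 candidates per Mb in cattle, 0.988 in sheep and 1.85 in goats, against 6.12, 5.45 and 8.40 per Mb at 5 to 100 kb.

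**Figure D1:**
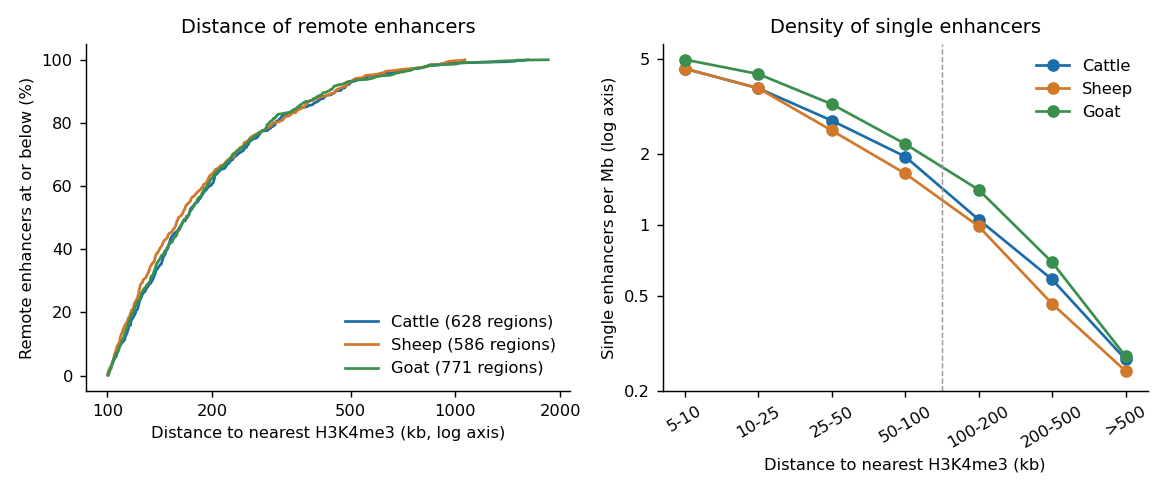
Left, cumulative share (%) of remote enhancers against the distance to the nearest H3K4me3 interval (kb, log axis), 1 line per species. Right, single enhancers per Mb of sequence (log axis) in 7 classes of distance to H3K4me3, with the dashed line at 100 kb: the density goes from between 4.56 and 4.97 per Mb at 5 to 10 kb to between 0.243 and 0.280 per Mb beyond 500 kb.

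Between H3K4me3 intervals, only stretches longer than 200 kb can hold such a region, and most of them held none. Chromosome ends, with H3K4me3 on one side only, are left out of these counts, and with them 1 sheep and 2 goat regions. Cattle had 2792, sheep 2898 and goats 2653 of them, and 16.3%, 16.1% and 21.1% held at least 1 remote enhancer. A single region stood in 339 cattle, 369 sheep and 412 goat stretches. The share of stretches with a region was larger in each longer class. For cattle it was 6.56% at 200 to 300 kb and 33.0% above 1000 kb, for sheep 6.09% and 38.1%, and for goats 9.78% and 41.4%. The density went the other way. For each Mb more than 100 kb from H3K4me3, cattle had 1.62 regions in stretches of 200 to 300 kb and 0.376 in those above 1000 kb. The values were 1.52 and 0.396 in sheep, and 2.50 and 0.455 in goats. The longest stretches were nearly empty: 2 regions lay in 4954 kb on cattle chromosome 24, none in 5080 kb on sheep chromosome 9 and none in 6302 kb on goat chromosome 14. Lengths and densities are in assembly coordinates. Without a genome, sequence in which no peak could be called was not removed.

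**Figure D2:**
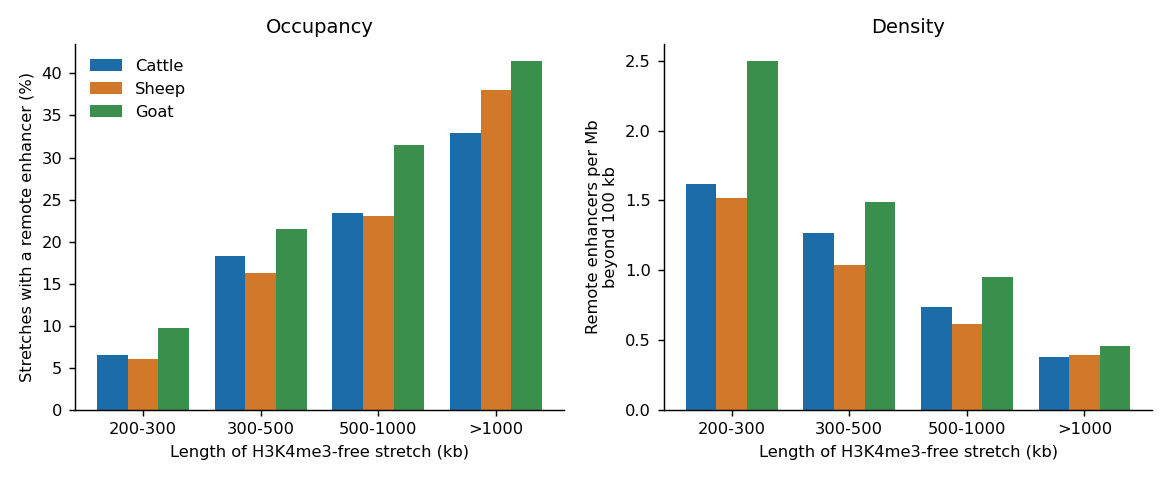
Stretches of autosome without H3K4me3, grouped by length (kb), in cattle, sheep and goats. Left, share (%) of stretches with at least 1 remote enhancer, up to 41.4% in goats above 1000 kb. Right, remote enhancers per Mb of the sequence beyond 100 kb from H3K4me3, which is lowest above 1000 kb in each species (0.376, 0.396 and 0.455).

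The H3K4me3 interval that set the distance was more often one seen in a single animal than H3K4me3 intervals in general were. For 24.4% of the cattle, 29.9% of the sheep and 25.9% of the goat regions, the nearest H3K4me3 interval was found in 1 animal only, while such intervals made up 20.1%, 20.3% and 18.0% of all. With H3K4me3 counted only where at least 2 animals had it, the rule left 918 cattle, 934 sheep and 1125 goat regions. H3K4me3 lay on one side only for 1 sheep and 2 goat regions, and on both sides of all the others. The nearest other candidate was at a median of 106 kb in cattle, 141 kb in sheep and 105 kb in goats. H3K27ac of a single library lay within just over 12 kb of 39.6%, 33.1% and 39.3% of the remote enhancers, so these did not stand alone in every liver. For nearer single enhancers the share was 45.6%, 40.0% and 43.0%.

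Remote enhancers occurred on every autosome, in unequal numbers. In cattle, chromosome 14 had the highest share, with 34 regions or 9.44% of its candidates, and chromosome 25 the lowest, with 5 regions or 1.64%. In sheep, chromosome 4 had 44 regions (9.28%) and chromosome 20 had 5 (1.52%). In goats, chromosome 20 had 34 regions (7.67%) and chromosome 19 had 13 (1.92%). The room for such regions differed too: in goats, 45.9% of chromosome 20 but 15.7% of chromosome 19 lay beyond 100 kb from H3K4me3. On cattle chromosome 14 that part was 36.9%, and each Mb of it held 1.12 regions, against 0.449 on chromosome 25. On sheep chromosomes 4 and 20 the densities were 0.877 and 0.360 per such Mb, while goat chromosome 19, with the lowest share, had the higher density of its pair (1.33, against 1.03 on chromosome 20). Across chromosomes, regions per 10 Mb and the percentage beyond 100 kb had a Spearman's rho of 0.13 in cattle (29 chromosomes), 0.30 in sheep (26) and −0.034 in goats (29), given as a description.

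Cattle and goats have the same number of autosomes, and equal numbers were set side by side in the 2 assemblies. Over these 29 chromosomes, the share of candidates that were remote ranked alike in the 2 species, with a Spearman's rho of 0.74. The rho was 0.47 for regions per 10 Mb, and 0.96 for the percentage of the chromosome beyond 100 kb from H3K4me3. Equal numbers need not be matching chromosomes: chromosome 9 spanned 104.5 Mb in cattle and 91.5 Mb in goats, and chromosome 14 spanned 82.0 Mb and 94.6 Mb. Chromosome 14, the highest in cattle at 9.44%, had 4.32% in goats. These correlations are across chromosomes, which differ in length and in density of promoters in both genomes, and are given as a description.

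**Figure D3:**
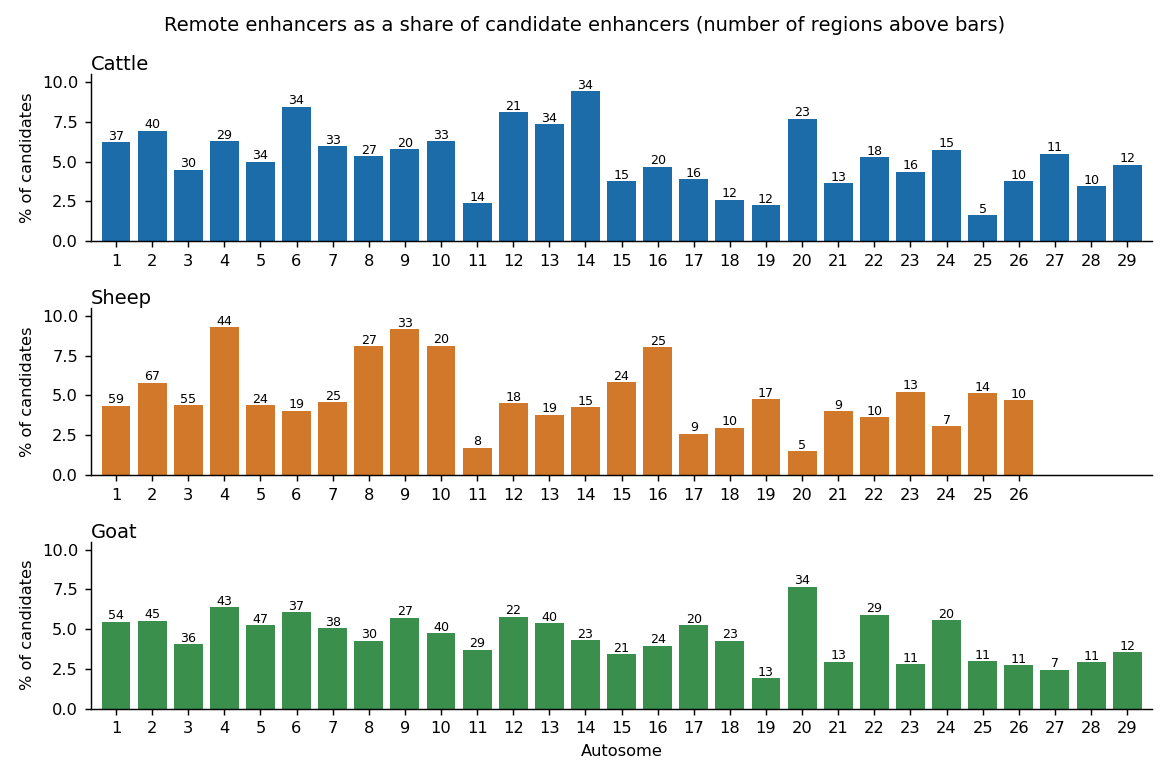
Remote enhancers as a percentage of the candidate enhancers of each autosome in cattle (29 autosomes), sheep (26) and goats (29), with the number of regions above each bar. The tallest bars are cattle chromosome 14 (9.44%), sheep chromosome 4 (9.28%) and goat chromosome 20 (7.67%).

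The second question was whether the H3K27ac signal of these regions was weak. By fold enrichment, the ratio of the signal at a peak's summit to the local background with 1 fragment added to each by the authors' peak caller, remote enhancers stood above nearer single enhancers. The median fold enrichment of the peaks in remote enhancers was 3.74 and 4.33 in cattle B and C. It was 4.25, 4.09 and 4.19 in sheep A, B and C, and 4.14, 4.08 and 4.30 in goats A, B and C. In nearer single enhancers it was 3.45 and 4.0 in cattle, 3.71, 3.69 and 3.74 in sheep, and 3.78, 3.83 and 3.90 in goats. Remote enhancers were higher in 8 of 8 libraries. The mean difference was 0.14 on the log2 scale (SD 0.033, n = 8), or 10.1%, with p = 0.00781 in a two-sided exact sign-flip permutation test over libraries and 0.0156 after Benjamini-Hochberg adjustment over 6 measures. This p is the smallest that sign flips over 8 libraries can give. The libraries of a species were read over the same regions and are not fully independent, and p measures only the spread between these animals.

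The number of fragments went the other way. The fold enrichment and the p-value of a peak together fix a whole number of fragments at the summit (the pileup) and the background against which it was judged, and both were recovered from the deposited values. The median pileup of remote enhancers was 22 and 21 fragments in cattle B and C, 18 in each of the 3 sheep, and 17, 19 and 17 in the goats. In nearer single enhancers it was 25 in both cattle, 22, 22 and 21 in sheep, and 19, 22 and 20 in goats. It was lower in 8 of 8 libraries, by a mean of 14.8% (log2 difference −0.23, SD 0.046, n = 8, exact sign-flip permutation p = 0.00781, adjusted 0.0156).

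The local background differed most. Its median was 5.06 and 3.92 fragments in cattle B and C, 3.40, 3.53 and 3.45 in sheep and 3.20, 3.81 and 3.19 in goats, against 6.40 and 5.34, 4.91, 4.91 and 4.78, and 4.29, 4.90 and 4.16 in nearer single enhancers. The mean difference was −0.43 on the log2 scale (SD 0.064, n = 8), or 25.7% lower, in 8 of 8 libraries (exact sign-flip permutation p = 0.00781, adjusted 0.0156). The sizes depended on the comparison set: against nearer single enhancers at 50 to 100 kb alone, the differences were 0.09 for fold enrichment, −0.10 for pileup and −0.22 for background on the log2 scale, each still with p = 0.00781 (exact permutation). In each library the lowest background, between 1.78 and 2.15 fragments, was the most common value. Between 1.85% and 11.9% of peaks in remote enhancers stood at it, against 0.930% to 3.56% in nearer single enhancers. At a given p-value, the caller's formula ties a lower background to fewer fragments and a higher fold, so the 3 differences are views of the same peaks rather than separate results.

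**Figure D4:**
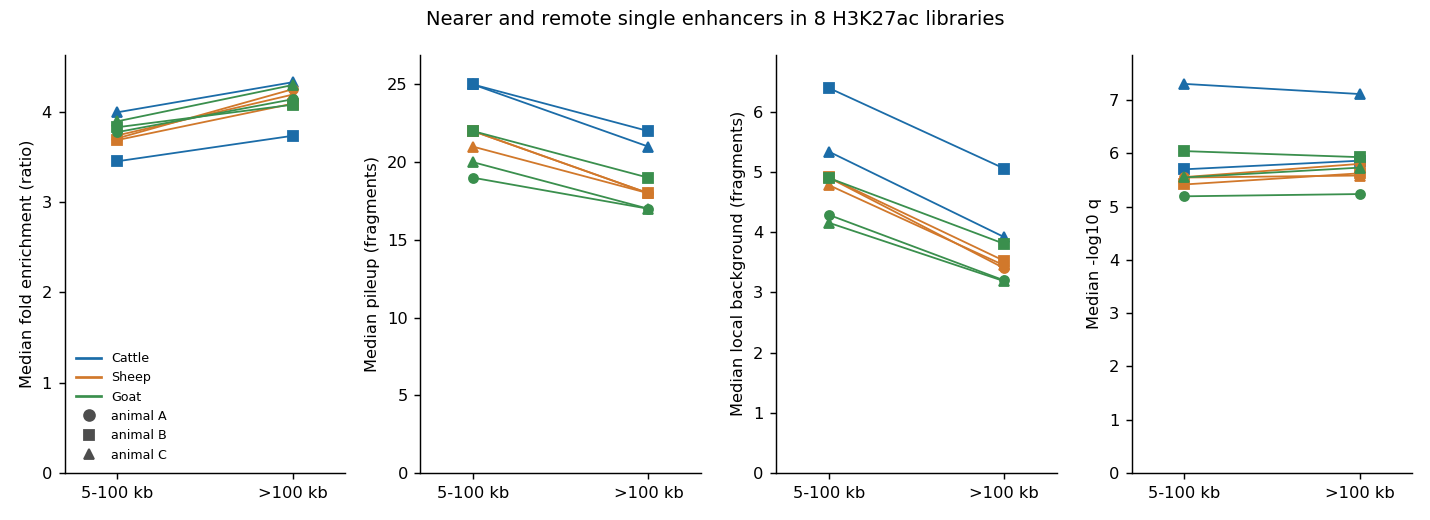
Medians over peaks of nearer (5 to 100 kb) and remote (over 100 kb) single enhancers, joined for each of the 8 H3K27ac libraries (colour, species; symbol, animal), for fold enrichment, pileup, local background and −log10 q. Fold enrichment rises and pileup and background fall in 8 of 8 libraries, while −log10 q moves both ways.

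Set among all peaks of its library, the typical remote enhancer was ordinary by fold and low by fragments. The median remote peak stood between percentiles 51.9 and 60.2 of the library by fold enrichment, but between 13.4 and 20.7 by pileup. The median pileup over all peaks was 33 to 39 fragments. No library had more than 2.35% of its remote peaks in the upper quartile of pileup, whereas 10.8% to 25.5% were in the upper quartile of fold enrichment. The lowest pileup in a remote enhancer was 9 or 10 fragments and the highest 42 to 114. One fragment more or less changes −log10 p by a median of 0.247 to 0.276 in these lists, so the values of single regions near the lower end are coarse.

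Differences in the evidence per peak and in the shape of the peaks did not pass the test as planned. The median −log10 q was 5.24 to 7.12 in remote and 5.20 to 7.31 in nearer single enhancers, a mean log2 difference of 0.020 (SD 0.038, 6 of 8 libraries higher, exact sign-flip permutation p = 0.180). Median peak width was 379 to 493 bp against 382 to 492 bp, a log2 difference of −0.0033 (SD 0.016, n = 8, exact permutation p = 0.602). Peaks with more than 1 summit made up 11.3% to 16.6% of remote and 11.5% to 19.8% of nearer peaks, 1.17 percentage points fewer (SD 1.30, 6 of 8 libraries lower, exact permutation p = 0.0547). The summit and −log10 q results depended on the settings. The summit difference passed in 9 of 21 alternatives (−2.18 without isolation, exact permutation p = 0.00781) but was 0.019 against 50 to 100 kb, and that in −log10 q passed in 4 of 21 (0.051 against 50 to 100 kb, exact permutation p = 0.0156). The merged regions had a median width of 594 bp in cattle, 570 bp in sheep and 544 bp in goats. None of the 6 differences was shown to differ between species, with exact permutation p for the F statistic from 0.0714 to 0.493 over 560 arrangements.

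The signal differed between classes of distance on both sides of the limit, and a step at the limit was not tested. As a mean over the 8 libraries of the library median, fold enrichment was 3.62 ± 0.154 (SD) at 5 to 10 kb, 3.72 ± 0.162 at 10 to 25 kb, 3.85 ± 0.155 at 25 to 50 kb, 3.89 ± 0.154 at 50 to 100 kb, 4.06 ± 0.188 at 100 to 200 kb and 4.28 ± 0.226 at 200 to 500 kb. Pileup was 24.8 ± 2.82, 22.4 ± 2.13, 21 ± 2.0, 20.1 ± 2.03, 19.5 ± 2.07 and 18.4 ± 2.09 fragments in the same classes. Background was 5.94 ± 0.956, 5.10 ± 0.672, 4.59 ± 0.610, 4.30 ± 0.654, 3.83 ± 0.593 and 3.49 ± 0.686 fragments. Beyond 500 kb, where 46 cattle, 41 sheep and 53 goat regions remained, fold enrichment was 4.26 ± 0.205 and pileup 17 ± 1.98 fragments. In each class beyond 10 kb, 8 of 8 libraries had a higher fold enrichment and a lower pileup than at 5 to 10 kb. Peak width stayed between 411 and 418 bp in all 7 classes.

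**Figure D5:**
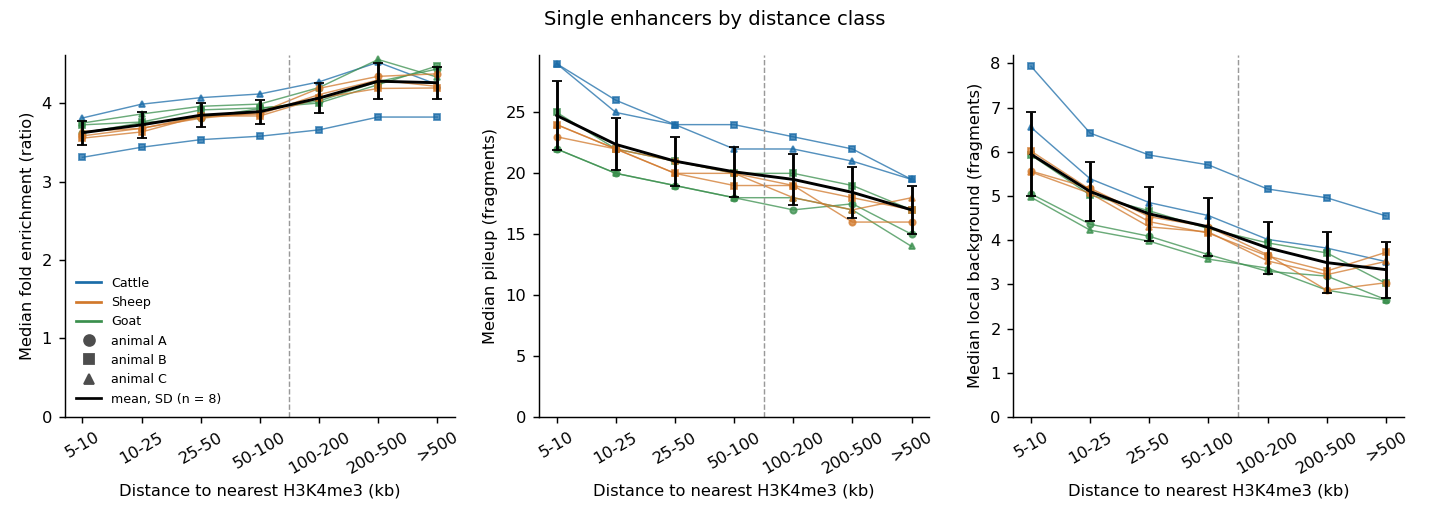
Library medians of fold enrichment, pileup and local background of single enhancers in 7 classes of distance to H3K4me3 (thin lines, 8 H3K27ac libraries; black, mean and SD over libraries; dashed line, 100 kb). Mean fold enrichment goes from 3.62 to 4.26 and mean pileup from 24.8 to 17 fragments between the first and the last class.

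Isolation went with lower pileup as well. Candidates beyond 100 kb that had a neighbour within just over 12 kb were left out by the rule. There were 405 of them for cattle, 319 for sheep and 836 for goats. Their median fold enrichment was 3.12 to 4.06 over the 8 libraries, against 3.74 to 4.33 in the isolated regions, and their median pileup was 23 to 32 fragments, against 17 to 22. Median background was 5.05 to 8.88 fragments, against 3.19 to 5.06, and median −log10 q 5.97 to 8.10, against 5.24 to 7.12. Both were higher in the clustered candidates in each library.

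Remote enhancers were found in all livers about as often as nearer ones in sheep, and at a lower share in goats. Of the sheep regions, 266 (45.4%) were found in all 3 livers, against 43.7% of nearer single enhancers. Of the goat regions, 316 (41.0%) were, against 46.9%. The goat regions present in A and B but not in C made up 28.3%, against 19.9% of nearer single enhancers, and goat C held 71.7% of the remote enhancers and 80.1% of the nearer ones. Before the requirement for 2 libraries, 43.0% of cattle, 42.1% of sheep and 48.8% of goat intervals beyond 100 kb were seen in at least 2 livers, compared with 45.3%, 45.3% and 50.4% at 5 to 100 kb. With 1 value per species, these shares were not tested.

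Summit position and peak height were also compared between animals. Between 2 livers of a species, the strongest summits in a remote enhancer lay a median of 73 to 86 bp apart over the 7 pairs of libraries, and 79 to 91 bp apart in nearer single enhancers. Only the sheep pairs had smaller distances in remote enhancers (73, 79.5 and 82 bp, against 91, 91 and 86 bp). The cattle pair had 84 against 79 bp, and the goat pairs 81, 86 and 81.5 against 81, 84.5 and 81 bp. Within 100 bp of each other lay 56.2% to 59.5% of the pairs of remote summits and 53.4% to 58.7% of the nearer ones. The merged remote regions themselves, with a median width of 544 to 594 bp, limit how far apart their summits can be. The rank correlation of fold enrichment between 2 livers was 0.42 to 0.50, against 0.48 to 0.58 in nearer single enhancers, and was lower in each of the 7 pairs. For pileup it was 0.52 to 0.79 against 0.68 to 0.85, again lower in each pair. Remote enhancers had fewer fragments (library medians of 17 to 22, against 19 to 25), and the part of this in the lower values was not tested. These correlations run over 356 to 628 remote enhancers that share the peak calling of both libraries, and are descriptions.

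The strongest remote enhancers were ranked by the lowest fold enrichment over the libraries of the species. Only regions found in every H3K27ac library of the species entered this ranking. In cattle (ARS-UCD1.2) the first was chr19:50312682-50313246, 136 kb from H3K4me3, with a fold enrichment of 7.04 in B and 7.61 in C on 38 and 34 fragments. The second, chr11:64245438-64246070 at 329 kb, had 7.03 and 9.65 on 36 and 46 fragments. The third, chr9:64231105-64232034 at 204 kb, had 7.01 and 6.85 on 63 and 48 fragments. The fourth, chr13:35788400-35789058 at 150 kb, stood out by fragments: 79 and 99 at the summit, with a fold enrichment of 6.83 and 9.34 over a background of 10.7 and 9.70. The fifth, chr26:25276670-25277497 at 137 kb, reached a fold enrichment of 7.92 and 6.82 on only 24 and 20 fragments. Its background was 2.16 and 2.08, where the lowest of those libraries was 2.15 and 2.08.

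In sheep (Oar_rambouillet_v1.0) the top of the ranking was made of low backgrounds. The first region, chr13:6653156-6653678 at 109 kb, had a fold enrichment of 8.16, 8.02 and 7.06 in A, B and C on 24, 22 and 19 fragments. The others were chr15:18519184-18519910 at 157 kb, chr12:12984943-12985326 at 123 kb, chr7:66302026-66302325 at 323 kb and chr2:153278077-153278382 at 204 kb. Over the 5 regions the fold enrichment was 5.97 to 9.42 and the pileup 17 to 26 fragments, so the highest ranks rested on few fragments. Their background was 1.83 to 2.07, where the lowest of the libraries was 1.97, 1.87 and 1.83. The region on chromosome 15 stood alone, with its nearest candidate 768 kb away.

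In goats (ARS1) the strongest regions had more fragments. They were chr12:27510781-27511357 at 216 kb, chr20:11900002-11900784 at 380 kb, chr5:85219991-85220902 at 481 kb, chr17:35751501-35752865 at 178 kb and chr6:97091456-97092039 at 121 kb. The first had a fold enrichment of 6.46, 6.45 and 6.62 in A, B and C on 33, 40 and 30 fragments, so the 3 livers were close. The region on chromosome 5 had 6.29, 6.64 and 8.34 on 32, 45 and 39 fragments. All 5 had a pileup of 21 to 45 fragments and a background of 2.42 to 5.93.

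The most distant regions had a fold enrichment between 2.63 and 5.98, on both sides of the library medians of remote enhancers. In cattle they were neighbours 37.7 kb apart on chromosome 19, chr19:3402115-3402698 at 1618 kb and chr19:3440376-3441206 at 1579 kb. The first had a fold enrichment of 2.97 and 5.05 in B and C, and the second 2.63 and 4.68. Their pileup of 39 to 70 fragments and their background of 10.1 to 16.9 were both far above the cattle medians of remote enhancers, and the cause was not tested. In sheep the most distant was chr25:23514598-23515288 at 1066 kb, present in all 3 livers with a fold enrichment of 5.98, 4.17 and 4.19. The next, chr22:29580342-29580781 at 1053 kb, was present in A and C with 5.01 and 3.72. In goats, chr20:44720266-44720687 was 1851 kb from H3K4me3 and 2229 kb from any other candidate, with 4.47 and 3.45 in B and C on 17 and 10 fragments. The next, chr7:33160792-33161443 at 1510 kb, was present in all 3 goats with 4.05, 3.63 and 4.36. The widest regions were chr14:26820725-26822696 in cattle (1972 bp), chr13:37634599-37636179 in sheep (1581 bp) and chr5:84910687-84912712 in goats (2026 bp).

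Some stretches held several remote enhancers, and the fullest of each species is described here after its count was seen. In cattle it was chr3:89719607-91130552, a stretch of 1411 kb without H3K4me3 that held 9 of them among 17 candidates. They lay between 122 and 702 kb from H3K4me3. The most enriched, chr3:89891348-89892560, had a fold enrichment of 4.39 and 5.70 in B and C on 44 and 55 fragments, and chr3:90243142-90244271 had 43 and 47 fragments. In goats it was chr5:84739102-85843585, of 1104 kb, with 7 remote enhancers among 11 candidates. The widest goat region and the third of the strongest both lay in it, and 4 of the 7 were found in all 3 livers. In sheep, 3 stretches held 4 each. One of them, chr2:152757067-153481899, held the chromosome 2 region named above in the ranking. Another region in it, chr2:153376582-153377208, had a fold enrichment of 7.42 in A and 11.2 in B. It was not found in C and so was outside the ranking.

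The last comparison asked whether the species differed in how much of their H3K27ac was remote, judging each animal by its own 2 lists so that no animal entered the value of another. Of an animal's autosomal H3K27ac peaks, 7.43% in cattle B and 6.10% in cattle C lay more than 100 kb from its H3K4me3. The shares were 5.96%, 4.0% and 4.53% in sheep A, B and C, and 7.57%, 5.95% and 5.35% in goats A, B and C. Cattle had a mean of 6.77% ± 0.940 (SD, n = 2), sheep of 4.83% ± 1.01 (SD, n = 3) and goats of 6.29% ± 1.15 (SD, n = 3). Both cattle lay above the 3 sheep, and goats overlapped each of the others. By species labels, the permutation test missed the threshold (F = 2.43, exact permutation p = 0.214 over 560 arrangements). The share moved with the number of H3K4me3 peaks of the animal, and the part of that number in the result was not tested. Cattle B had 23613 and C 25395, sheep A, C and B had 26996, 28825 and 29469, and goats A, B and C had 23483, 26952 and 27474. In each species, the animal with the fewest H3K4me3 peaks had the highest remote share and the one with the most had the lowest. With the H3K4me3 of all animals of a species pooled, cattle had a mean of 4.30%, sheep 3.12% and goats 4.38% (exact permutation p = 0.0357). In that case all animals of a species were judged against the same H3K4me3 set, so the spread between animals in H3K4me3 did not enter and the values were not independent. Among the 20000 strongest peaks of each list the means were 4.39%, 4.99% and 4.46% (p = 0.0464, exact permutation), with sheep then highest.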

How the data were processed

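ChIP-seq for H3K27ac and H3K4me3 was performed on liver of cattle, sheep and goats, and 17 peak lists were deposited, 1 per library. The 9 input samples had no list and entered no comparison. According to the methods and the submitters' processing notes, the authors trimmed reads (Trim Galore 0.4.0), aligned them (BWA 0.7.17) to ARS-UCD1.2, Oar_rambouillet_v1.0 or ARS1, removed duplicates (Picard 2.25.0), subsampled reads and identified narrow peaks with MACS2 2.1.1 at q under 0.01. Whether the input served as background is not given in the sources used here. The deposited values are a fold enrichment (a ratio of pileup to local background, with 1 added to both, which lowers the ratio most where counts are low), −log10 p and −log10 q, and a score of 10 times −log10 q, which was not used. Read depth is not part of the lists, so the common depth to which the authors subsampled paired-end libraries was not checked, and the precision rests on 2 or 3 animals per species.

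Summits of the same interval counted as 1 peak. Overlap of 1 bp counted. Pileup and background were recovered by solving the caller's Poisson formulas, and 99.97% of 327701 autosomal H3K27ac peaks were reproduced within 0.002 in −log10 p, and 84 peaks were not. Both measures were added after seeing the files. Each library gave 1 difference of medians between remote and nearer single enhancers, tested by exact two-sided sign flips. The library is the block, since both sets come from the same liver and the same list. Species were compared by permuting labels on the F statistic. The threshold was 0.05. The overlap code, the choice of regions, the recovery and the tests were checked on simulated data. Python 3.11.15, numpy 2.4.6, pandas 2.3.3, scipy 1.17.1 and matplotlib 3.10.9 were used. Groups follow the sample labels.

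The regions and measures were chosen with earlier results of these data known. Named regions were, per species, the 5 with the highest lowest fold enrichment among those in every library, the 2 farthest, the widest, and the 2 on either side of the limit. Chromosomes were named by highest and lowest share. Coordinates are 1-based. Gene names, sequences and a sheep annotation of another assembly were not used here. Alternatives covered the distance limit, −log10 q of at least 5, isolation, recurrence, overlap, H3K4me3 recurrence, the comparison set, means and leaving out each animal. Others worked within autosomes, within classes of q, without the replicate block or on the strongest peak of each region.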

Additional observations from a re-analysis of the deposited data

How the results depend on the processing

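The differences in fold enrichment, pileup and background kept their direction and passed the threshold in each of 22 alternatives, from 0.09 to 0.18, −0.29 to −0.10 and −0.53 to −0.22 on the log2 scale. Against nearer single enhancers at 50 to 100 kb alone they were 0.09, −0.10 and −0.22, the smallest values of each. Leaving out 1 animal gave 0.13 to 0.15, −0.24 to −0.21 and −0.46 to −0.42. Without cattle B or cattle C no cattle region was left. For every difference both settings therefore gave the same values, of sheep and goats alone, and both are counted among the alternatives. Without the replicate block, with sets exchanged freely within species, the fold difference of 0.14 had an exact permutation p of 0.00417, and removing the block moved no other difference across the threshold.

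The difference in −log10 q was −0.013 with a limit of 50 kb, 0.050 for regions in all libraries (p = 0.0234, exact permutation) and 0.051 against 50 to 100 kb (p = 0.0156, exact permutation), and 0.0094 to 0.041 without single animals. It passed the threshold without goat A (0.034) or goat B (0.041). The width difference was 0.0015 with a limit of 200 kb, −0.026 without isolation (p = 0.0469, exact permutation), 0.014 in all libraries, 0.0029 at 50% overlap, 0.0074 against 50 to 100 kb, 0.0082 within classes of q, and −0.011 to 0.012 without single animals. Its direction turned without sheep A (0.0048) or goat B (0.012), and without cattle A it was −0.010 and passed. The summit difference, in percentage points, was −1.43 at 50 kb, −1.73 at 200 kb, −2.02 at −log10 q of at least 5, −2.18 without isolation, 0.019 against 50 to 100 kb, −1.65 within autosomes, and −1.32 within classes of q. It passed the threshold in each of these except against 50 to 100 kb. Without single animals it was −1.76 to −0.71 and passed without sheep B, goat A or goat C (−1.52, −1.43 and −1.76). The within-autosome and within-class values, and those from only the strongest peak of each region, were added after seeing the data.

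The numbers of regions in cattle, sheep and goats were 1407, 1270 and 1602 at 50 kb, 247, 213 and 289 at 200 kb, and 1033, 905 and 1607 without isolation. Requiring all libraries for a candidate gave 332 sheep and 485 goat regions. These are more than the 266 and 316 regions found in all 3 livers, since isolation was then judged among fewer candidates. H3K4me3 of at least 2 animals gave 918, 934 and 1125. Without 1 animal there were 439 to 527 in sheep, 598 to 754 in goats and 792 in cattle without A. Cattle without B or C had no region, because only 1 H3K27ac library was left. The spread of species means in the remote share, 1.94 percentage points, was 0.603 for the 20000 strongest peaks and 1.26 with the H3K4me3 of all animals, where sheep and goats were highest, respectively, and 1.47 to 2.60 without single animals. Goats were highest without cattle B. For these shares the cause was not tested.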
